A study of Arabidopsis thaliana with 9 samples.

Results

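The genes described here are 85 Arabidopsis loci that the RefSeq gene table lists without a symbol beyond the AT locus. Transcripts of these loci stood higher, and to a like degree, in leaves kept with either of 2 cytokinins than in control leaves. The loci were selected by measured values. The difference of group means from control was at least 1.5 on the log2 scale with both compounds. All 6 treated arrays lay above all 3 control arrays, and the compounds lay under 1 apart. The choice was made among 14800 transcript clusters (the unit in which the array reports a transcript) paired with 1 gene whose RefSeq symbol is its AT locus alone, of 38408 transcript clusters in all. AT2G30540 was left out by name. It was also outside the rule, since its compounds stood 1.52 apart.

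Detached leaves, matched for size and chlorophyll, came from Arabidopsis thaliana Col-0 plants aged 21 days, with 10 to 15 leaves pooled in a sample. The dark incubation in MS medium lasted 48 h, and the medium held compound 3 or compound 6, each at 10 µM, or only the solvent DMSO at 0.05% as control. The labels call both compounds cytokinins and give them code names alone. Each of the 3 groups has 3 biological replicates, each on its own Affymetrix array.

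All groups therefore share detachment, darkness and the medium, and no group holds fresh leaves or leaves from the start. "Higher" means higher than in control leaves at 48 h, and gain and slower loss cannot be told apart. The labels number the control samples 7 to 9, the compound 6 samples 16 to 18 and the compound 3 samples 19 to 21. What these numbers follow is not stated, and anything they follow cannot be told apart from group. In whole leaves, more cells of a type and more RNA per cell cannot be told apart either. Of the 6 mesophyll markers sought, the 1 measured was RCA, Rubisco activase, at 9.90 ± 0.21 in control leaves (log2, SD, n = 3). RCA, which is also a Calvin cycle gene, was itself 0.93 higher with compound 3 and 1.13 higher with compound 6 (limma, adjusted p = 0.00607 and 0.0018), and its part in the results below was not tested. The 3 measured root genes, the guard cell gene FMA and the dividing cell gene AUR1 were not called with either compound, with differences from -0.37 to 0.285. No phloem, xylem or epidermis marker that was sought had a cluster of its own.

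Cytokinins are adenine-derived plant hormones. They bind histidine kinase receptors, a phosphate relay carries the signal to response regulators in the nucleus, and these change transcription. In leaves they are known for delaying senescence, the programme in which chloroplasts are dismantled and their nitrogen is exported, and cutting and darkness start that programme early. A locus with no symbol is an annotated gene that the RefSeq table lists by its systematic number. Many such loci belong to families whose biochemistry is known.

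All 85 loci are protein-coding, and each was represented by 1 cluster that met the rule. Roles given below are background knowledge of the Arabidopsis annotation. They were sorted by hand into 6 groups after the values had been seen, and cover 51 loci. For the other 34 no role is given here.

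Because the rule used every array and all 3 group means, the values below describe these loci and carry no test. Of the 14800 clusters, 162 reached a difference of 1.5 with compound 3, 155 with compound 6 and 89 with both, where 1.15% and 1.12% of all 16722 clusters paired with 1 gene did so with compound 3 and compound 6. All 6 treated arrays lay above all 3 control arrays for 7.22% of those 16722. This criterion removed 2 of the 89, AT3G16670 and AT5G52970, whose control arrays spread from 4.56 to 7.08 and from 5.79 to 8.02. The criterion on the distance between compounds removed another 2, AT5G02540 and AT2G30540. All thresholds together were met by 0.592% of clusters paired with 1 gene, by 0.574% of the locus-only clusters and, for comparison, by 14 of the 1774 clusters of genes with a symbol, 0.789%.

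**Figure D1:**
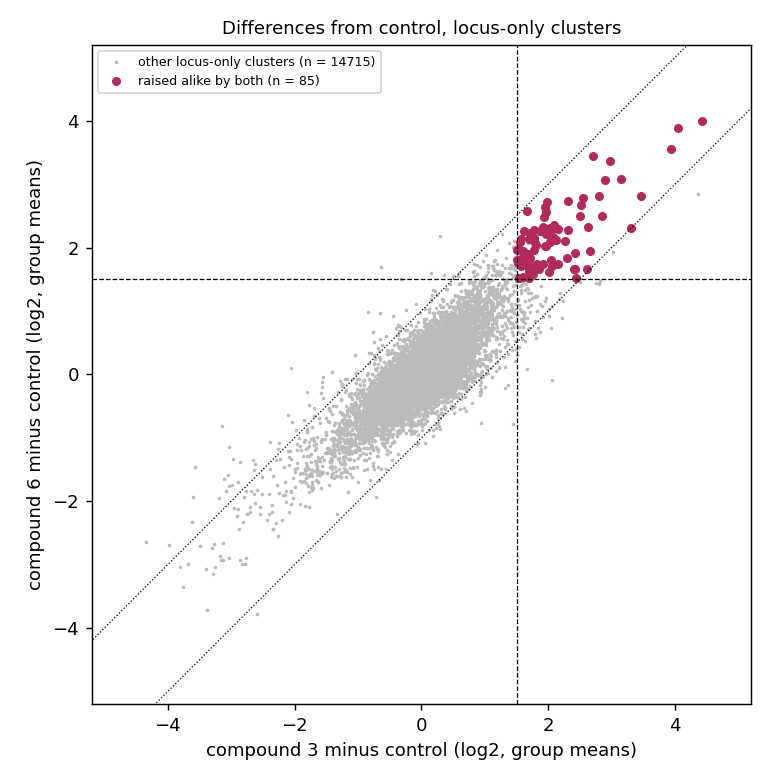
Difference of group means from control for each locus-only transcript cluster, with compound 3 on the horizontal and compound 6 on the vertical axis (log2). Large points are the 85 loci, dashed lines mark 1.5 and dotted lines mark compounds 1 apart. The rule bounds the large points, and both axes share the same control arrays.

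Over the 85 loci the difference from control ran from 1.5002 to 4.42 with compound 3 (median 1.96) and from 1.51 to 3.99 with compound 6 (median 2.09), both on the log2 scale. The median fold was 3.88 with compound 3 and 4.26 with compound 6. Over all clusters paired with 1 gene the median differences were 0.0097 and -0.02. Both differences use the same 3 control arrays, so their likeness is not independent.

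Both differences were at least 2 for 27 loci and at least 3 for 4 loci. The gap between the lowest treated and the highest control array was at least 1 for 67 loci and under 0.5 for 3 (median 1.28). The 3 with the narrowest gaps were AT1G66100, AT4G13575 and AT5G12110. The rule itself required separated arrays, and gaps of these sizes were not counted over all clusters. Spread between replicates was slightly wider than over all genes: the median SD was 0.32 on control, 0.25 on compound 3 and 0.28 on compound 6 arrays, against 0.26, 0.23 and 0.24 over all clusters paired with 1 gene.

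**Figure D2:**
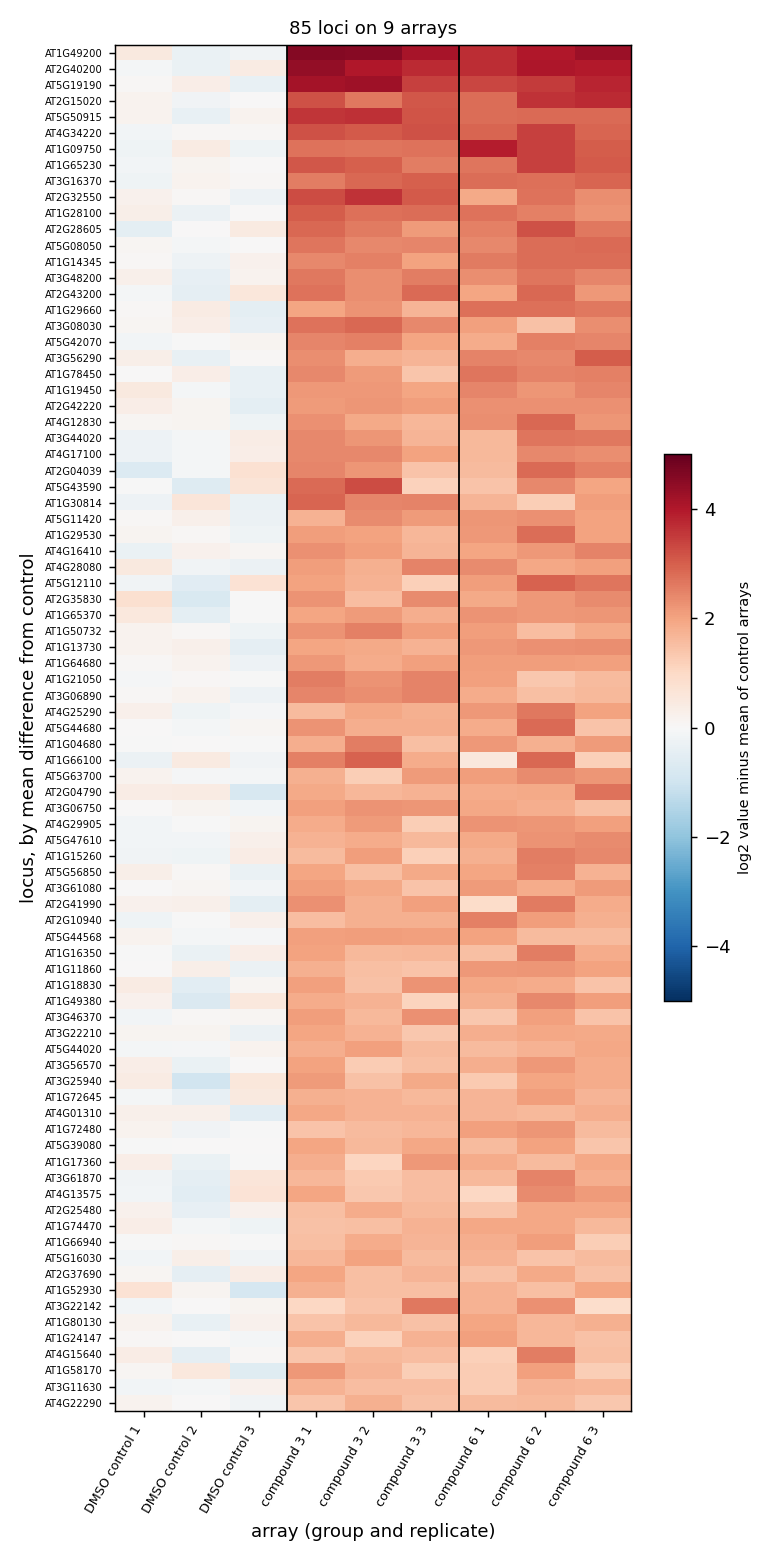
Log2 value minus the mean of the control arrays for each of the 85 loci (rows, by mean difference from control) on each of the 9 arrays (columns). Control columns are pale, treated columns are red throughout, as the rule requires, and the palest treated cell is AT1G66100 on compound 6 replicate 1.

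Levels of different clusters are not comparable on an array, because probes differ in how well they bind, so each level below is read only against the same cluster in the other groups. For the 14 loci with a control mean under 3 folds are approximate, because no detection calls were used.

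The loci with the greatest mean difference include a RING-finger protein, a pair of transcription factors and a receptor kinase. AT1G49200 encodes a RING-finger protein, of a family whose members attach ubiquitin to other proteins. AT1G49200 read 3.76, 2.94 and 3.09 on the control arrays, 7.85, 7.82 and 7.39 with compound 3, and 6.97, 7.28 and 7.53 with compound 6. These means are 21.5-fold and 15.9-fold above control, the greatest difference among the 85 with each compound, and the lowest treated array stood 3.21 above the highest control array.

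AT2G40200 encodes a basic helix-loop-helix (bHLH) transcription factor. Its control arrays read 5.57, 5.32 and 6.08, its compound 3 arrays 10.06, 9.66 and 9.38, and its compound 6 arrays 9.33, 9.69 and 9.63. The folds are 16.5 and 14.9, and the compounds' arrays overlap.

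AT5G50915 encodes the other bHLH protein. Control leaves gave 3.70, 3.18 and 3.72, compound 3 leaves 7.10, 7.19 and 6.69, and compound 6 leaves 6.31, 6.36 and 6.38. All compound 3 arrays lay above all compound 6 arrays, with folds of 11.0 and 7.03.

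AT4G34220 encodes a leucine-rich repeat receptor-like kinase, of the large family of plant membrane receptors. Its arrays read 3.26, 3.49 and 3.49 in control leaves, 6.61, 6.48 and 6.60 with compound 3, and 6.32, 6.84 and 6.34 with compound 6. The 2 treated means, 6.56 and 6.50, are nearly equal and 8.88-fold and 8.505-fold above control.

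No role is given here for AT5G19190, the third in order. It read 5.49, 5.74 and 5.03 in control leaves, 9.58, 9.64 and 8.84 with compound 3, and 8.78, 8.92 and 9.22 with compound 6. AT2G15020, next in order and likewise without a role here, read 2.83, 2.498 and 2.69 in control leaves, 5.87, 5.30 and 5.78 with compound 3, and 5.46, 6.28 and 6.39 with compound 6. Both sets of treated arrays lie well clear of control and overlap each other, and the control signal of AT2G15020 is dim.

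**Figure D3:**
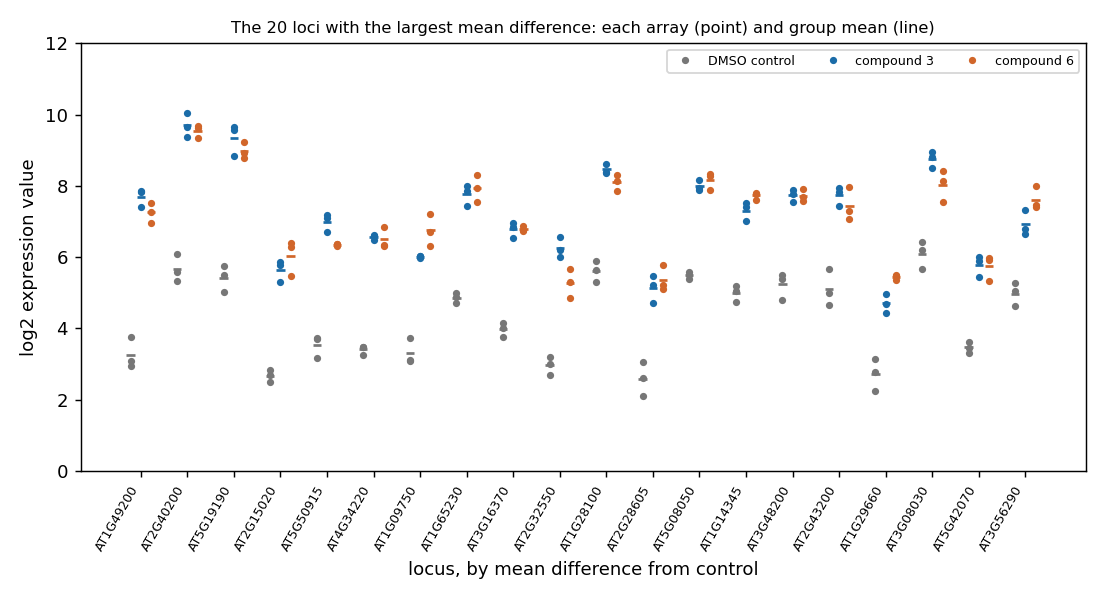
Log2 value on each array (points) and group mean (lines) for the 20 loci with the greatest mean of the 2 differences from control. AT1G49200, with control arrays between 2.94 and 3.76 and treated arrays between 6.97 and 7.85, stands first. As the rule requires, none of the 20 has a treated array within the range of control.

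Loci of the chloroplast, of photosynthesis or of photorespiration were 11 of the 51, counting AT1G11860, a photorespiratory protein of mitochondria. Roles were not assigned by hand to locus-only clusters outside the rule, so this and the other role groups have no background share. Whether 11 is many or few was therefore not tested. The differences of these 11 loci ran from 1.56 to 2.54 with compound 3 (median 2.02) and from 1.54 to 2.78 with compound 6 (median 2.12). Of the 11, 8 were higher with compound 6 than with compound 3. AT2G28605 encodes a PsbP-domain protein, a relative of an extrinsic subunit of photosystem II. It read 2.10, 2.62 and 3.06 in control leaves, 5.48, 5.21 and 4.72 with compound 3, and 5.11, 5.77 and 5.23 with compound 6. Its folds of 5.83 and 6.86 are approximate, since its control mean is under 3.

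AT5G08050 encodes a thylakoid protein known to affect the stacking of grana and the organisation of the light-harvesting complex of photosystem II. Its control arrays were close together, at 5.57, 5.39 and 5.49, against 8.16, 7.89 and 7.93 with compound 3 and 7.88, 8.26 and 8.34 with compound 6. The gap of 2.31 between the lowest treated and the highest control array is the widest in this group.

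AT2G04039 belongs to the NADH dehydrogenase-like complex of chloroplasts, which returns electrons to the thylakoid membrane. It had wide spread: 4.89, 5.48 and 6.31 in control leaves, 8.01, 7.78 and 6.99 with compound 3, and 7.14, 8.39 and 8.09 with compound 6. The highest control array and the lowest treated array are 0.68 apart.

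AT1G49380 encodes a factor that attaches heme to cytochromes of the thylakoid. Its means were 4.53 ± 0.66 in control leaves, 6.08 ± 0.40 with compound 3 and 6.61 ± 0.31 with compound 6 (SD, n = 3). AT1G74470, listed with the synonym GERANYLGERANYL REDUCTASE, makes the phytyl chain of chlorophyll and tocopherol. It stood at 7.26 ± 0.30 in control leaves and at 8.83 ± 0.14 and 9.08 ± 0.17 (SD, n = 3).

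AT3G11630, a chloroplast 2-Cys peroxiredoxin that removes peroxides, stood at 8.08 ± 0.19 in control leaves and at 9.68 ± 0.12 and 9.62 ± 0.23 in treated leaves (SD, n = 3). AT4G01310, a plastid ribosomal protein of the L5 family, stood at 5.24 ± 0.45 in control leaves and at 7.04 ± 0.11 and 6.96 ± 0.10 in treated leaves (SD, n = 3). AT4G28080 encodes a tetratricopeptide repeat protein, of a family known to set how much of the cell chloroplasts fill. Its treated means coincide at 9.52, against 7.41 ± 0.41 in control leaves (SD, n = 3).

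AT1G64680 belongs to the family of the carotenoid isomerase that starts strigolactone synthesis, and AT2G42220 is a rhodanese-like protein of the chloroplast. Their replicates were tight in compound 6 leaves, at 7.16 ± 0.021 and 7.26 ± 0.015, against 5.08 ± 0.22 and 4.98 ± 0.44 in control leaves (SD, n = 3). AT1G11860, the T protein of the glycine cleavage system, works in mitochondria and serves photorespiration. It stood at 4.52 ± 0.30 in control leaves, 6.09 ± 0.18 with compound 3 and 6.65 ± 0.11 with compound 6 (SD, n = 3), with all compound 6 arrays above all compound 3 arrays.

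Loci sorted by hand under the nucleus and DNA were 8, the bHLH pair among them. AT2G32550 belongs to the Rcd1-like family, a part of the CCR4-NOT complex that shortens messenger RNA tails. It read 3.19, 3.00 and 2.70 in control leaves, 6.21, 6.57 and 6.01 with compound 3, and 4.86, 5.68 and 5.29 with compound 6. At 0.99 apart it is the member nearest to the limit between compounds, and its compound 3 arrays lie above its compound 6 arrays.

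AT4G25290 is a photolyase-like protein, of a family known for light-driven DNA repair, and AT5G44680 belongs to the DNA glycosylases, which cut out damaged bases. AT4G25290 was 3.42-fold and 4.83-fold higher than control with compounds 3 and 6, and AT5G44680 3.90-fold and 4.09-fold. AT3G56570, of the SET-domain protein methyltransferases, stood 3.04-fold and 3.84-fold above control. The zinc-finger protein AT5G63700 was 3.29-fold and 4.67-fold higher, and AT3G25940, a zinc-ribbon protein, 3.55-fold and 3.28-fold. All of these but AT4G25290 had control means between 2.53 and 3.06, so their folds are approximate.

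The 5 loci sorted under RNA, translation and nucleotide synthesis had the lowest group median with compound 3, at 1.72 on the log2 scale. None of the 5 was among the 20 with the greatest difference. That depends on the sorting, since AT2G32550, whose family acts on messenger RNA, is among the 20 and was placed with the nucleus loci. AT5G12110, a subunit of elongation factor EF-1B, was 3.16-fold higher with compound 3 and 5.96-fold with compound 6. Its control arrays spread from 4.17 to 5.47, within 0.47 of the lowest treated array. AT1G13730, an RNA-binding protein with an NTF2 domain, was tighter, at 4.88 ± 0.38 in control leaves, 6.75 ± 0.11 with compound 3 and 7.14 ± 0.086 with compound 6 (SD, n = 3).

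AT1G52930, a Brix-domain protein of ribosome assembly, was 3.02-fold and 3.33-fold higher. A pair of loci belongs to purine synthesis: AT1G16350, inosine monophosphate dehydrogenase, which leads to guanine nucleotides, and AT2G37690, phosphoribosylaminoimidazole carboxylase. AT1G16350 was 3.42-fold and 3.92-fold higher with compounds 3 and 6, and AT2G37690 3.30-fold and 3.07-fold.

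Of the 9 loci of signalling and protein turnover, AT1G49200 and AT4G34220 were described above. AT5G47610, the second RING-finger protein, stood at 6.86 ± 0.23 in control leaves and was 3.32-fold and 4.48-fold higher in treated leaves (SD, n = 3). The second receptor-like kinase, AT3G46370, read 5.02, 5.22 and 5.27 in control leaves, 7.28, 6.80 and 7.47 with compound 3, and 6.53, 7.21 and 6.61 with compound 6. Its treated groups overlap.

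AT1G18830, with the synonym SEC31A, belongs to the COPII coat that buds vesicles from the endoplasmic reticulum, and was 3.77-fold and 3.34-fold higher. AT1G65370, a TRAF-like domain protein, was 3.90-fold and 4.62-fold higher. AT1G21050, of the DUF617 family of a root hydrotropism protein, was 5.38-fold higher with compound 3 and 3.15-fold with compound 6. AT1G72480, a membrane protein of a multi-pass receptor family, was 2.93-fold and 3.89-fold higher. AT2G25480, of the TPX2 family that binds microtubules, stood at 1.97 in control leaves and at 3.64 and 3.73 in treated leaves.

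Loci of the cell wall or of secreted proteins were 8. AT1G09750, an aspartyl protease, read 3.08, 3.72 and 3.10 in control leaves, 6.02, 5.97 and 6.02 with compound 3, and 7.22, 6.71 and 6.32 with compound 6. Its compound 6 arrays all lie above its compound 3 arrays, with folds of 10.9 and 6.53. Neither of the DUF642 proteins AT3G08030 and AT5G11420, from a plant family that binds cell wall polysaccharide, had all compound 6 arrays above all compound 3 arrays.

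AT3G08030 was 6.33-fold higher with compound 3 and 3.84-fold with compound 6, and its arrays of the 2 compounds did not overlap. AT5G11420 was 4.21-fold and 4.51-fold higher, with overlapping arrays. AT1G04680, of the pectate lyases, which cut pectin, stood at 4.27 ± 0.034 in control leaves and was 3.88-fold and 4.06-fold higher (SD, n = 3). The lipid-transfer protein-like loci AT2G10940 and AT3G22142 and the dirigent protein AT1G58170, of a family that guides the coupling of lignan precursors, were 2.86-fold to 4.38-fold higher.

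AT1G66100 encodes a thionin, a small antimicrobial peptide, and is the least separated of the 85. It read 4.14, 4.91 and 4.29 in control leaves, 6.96, 7.40 and 6.28 with compound 3, and 4.97, 7.30 and 5.63 with compound 6. Compound 6 replicate 1 stands only 0.06 above the highest control array, and the compound 6 SD of 1.20 is the greatest of any group among the 85.

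The 10 loci of metabolism and transport include a pair of GDSL lipases, enzymes that cleave or transfer acyl chains. AT3G16370 read 3.75, 4.14 and 4.02 in control leaves, 6.53, 6.85 and 6.96 with compound 3, and 6.77, 6.73 and 6.87 with compound 6, and its treated means of 6.78 and 6.79 nearly coincide. AT1G29660 was less alike between compounds, 3.94-fold higher with compound 3 and 6.56-fold with compound 6, whose arrays lay above those of compound 3.

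AT1G19450 encodes a sugar transporter of the ERD6-like family, some of whose members move sugar out of the vacuole. It stood at 6.79 ± 0.44 in control leaves, 8.89 ± 0.12 with compound 3 and 9.14 ± 0.13 with compound 6 (SD, n = 3). AT5G44020, of the HAD acid phosphatases, stood at 8.83 ± 0.14 in control leaves and at 10.66 ± 0.23 and 10.57 ± 0.18 in treated leaves (SD, n = 3). AT5G43590, of the patatin-like lipid acyl hydrolases, was uneven between replicates, at 6.13, 6.56 and 4.46 with compound 3.

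AT2G43200, of a methyltransferase family, was 6.16-fold and 5.04-fold higher with compounds 3 and 6. The other 4 of this group were an alpha/beta hydrolase (AT4G12830), a BAHD acyltransferase (AT5G39080), a fructosamine kinase (AT3G61080) and a heme-binding SOUL protein (AT1G78450). They were 3.50-fold to 3.91-fold higher with compound 3 and 3.16-fold to 5.89-fold with compound 6.

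**Figure D4:**
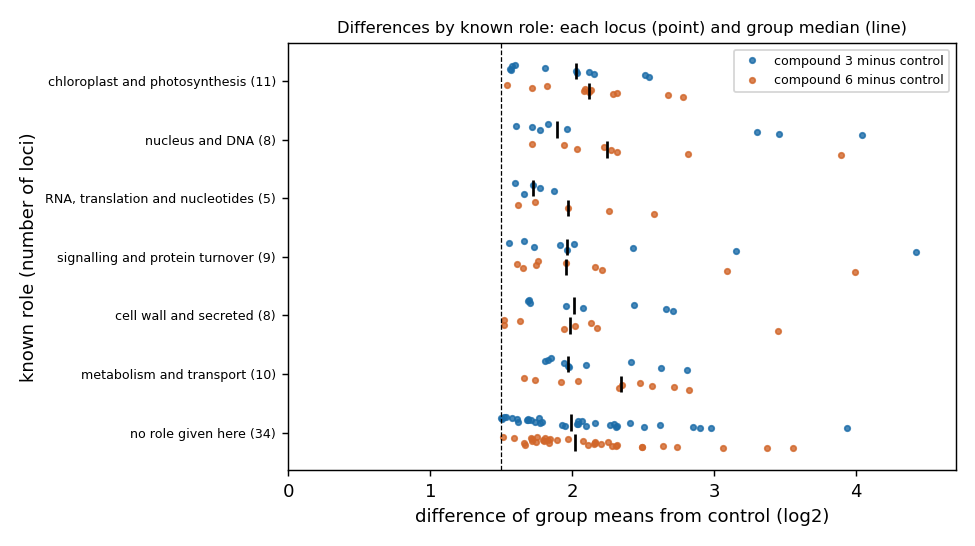
Difference of group means from control (log2) for each locus with compound 3 and compound 6, sorted by known role, with the median of each role group as a line. Medians lie between 1.72 and 2.34, and the dashed line at 1.5 is the limit set by the rule.

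The 34 loci for which no role is given here differed from control by 1.5002 to 3.93 with compound 3 (median 1.99) and by 1.51 to 3.55 with compound 6 (median 2.02). They include 8 of the 20 with the greatest difference: AT5G19190, AT2G15020, AT1G65230, AT1G28100, AT1G14345, AT3G48200, AT5G42070 and AT3G56290. AT1G65230 stood at 4.86 ± 0.14 in control leaves, 7.76 ± 0.29 with compound 3 and 7.93 ± 0.38 with compound 6 (SD, n = 3), a fold of 7.47 and 8.35. AT1G30814 read 1.68, 2.56 and 1.61 in control leaves, and 4.87, 4.41 and 4.42 with compound 3 and 3.64, 3.18 and 4.03 with compound 6.

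A second cluster paired with the same locus was measured for AT4G17100 alone, and its readings went another way. The cluster that met the rule read 5.48, 5.63 and 6.08 in control leaves, 8.13, 8.14 and 7.73 with compound 3, and 7.34, 8.12 and 8.05 with compound 6. The second read 7.95, 7.79 and 8.01 in control leaves, 7.86, 7.92 and 8.06 with compound 3, and 8.26, 8.35 and 8.02 with compound 6. Its differences from control are 0.03 and 0.29 against 2.27 and 2.11, so a single value cannot be given for this locus. Which transcripts the clusters read was not tested.

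**Figure D5:**
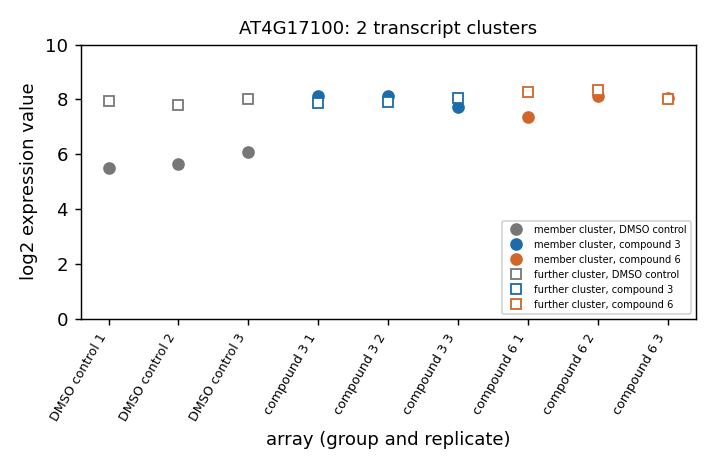
Log2 value of the 2 transcript clusters paired with AT4G17100 on each of the 9 arrays. Filled circles, the cluster that met the rule, span 5.48 to 6.08 in control and 7.34 to 8.14 in treated leaves, while open squares, the further cluster, stand between 7.79 and 8.35 on all 9.

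The limit of 1 between compounds leaves room for order between them. Compound 6 was the higher for 51 of the 85 loci and compound 3 for 34, against 48.6% of all clusters paired with 1 gene that were higher with compound 6. The compounds lay under 0.5 apart for 68 loci. For 60 loci the arrays of the 2 compounds overlapped. All compound 6 arrays lay above all compound 3 arrays for 15 loci and below them for 10. How often the arrays of the 2 compounds separate over all clusters paired with 1 gene was not counted, so 15 and 10 have no background share. The rule used this difference too, so these counts carry no test.

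Within a group, the highest and lowest values of many loci fell on the same array. Compound 6 replicate 2 gave the highest compound 6 value for 46 of the 85 and replicate 1 the lowest for 43. Compound 3 replicate 1 gave the highest compound 3 value for 42 and replicate 3 the lowest for 40. The median deviation of the 85 from their group mean was 0.11 on compound 6 replicate 2, while that of all clusters paired with 1 gene was -0.05. On compound 6 replicate 1 these deviations were -0.12 and 0.01. On compound 3 replicate 1 they were 0.13 and -0.0039, and on compound 3 replicate 3 -0.08 and -0.05. Counts of highest and lowest values over all clusters were not made. The median over all 38408 clusters was 4.15 on compound 6 replicate 2 and between 3.71 and 3.96 on the other 8 arrays. What part these array differences have in the values was not tested.

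Near the limit of 1.5 the choice turns on small amounts. The 3 members closest to it, AT1G80130, AT3G61870 and AT4G22290, had a smaller difference of 1.5002, 1.5028 and 1.5135. AT5G66890, AT1G44000 and AT2G28450 met every other condition and had 1.4973, 1.4906 and 1.4788. Of the members closest to the limit between compounds, AT1G30814 stood 0.95 lower and AT5G12110 0.91 higher with compound 6 than with compound 3. AT5G02540, with differences of 3.03 and 1.93, stood outside.

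Scaling decides how many loci qualify. When arrays were centred on the median of all their clusters, the median change of clusters paired with 1 gene moved to -0.15 with compound 3 and -0.27 with compound 6, and 54 of the 85 loci still met the rule. Without 1 array in turn, 72 to 83 of the 85 still did. In all 9 such repeats and under 3 other scalings 48 loci were kept, among them AT1G49200, AT2G40200, AT5G50915, AT4G34220, AT5G08050 and AT1G09750. Those not kept include AT2G32550, AT1G66100 and, of the chloroplast group, AT1G11860, AT1G49380, AT4G01310, AT1G74470 and AT3G11630. AT5G12110, AT2G37690 and AT1G52930 of the RNA group were not kept either, nor were further loci of the other groups.

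Genes of 7 pathway lists that have a place beside these roles were tested with limma over all 16722 clusters (two-sided, Benjamini-Hochberg adjusted p under 0.05). In that fit 5.6% of clusters were called higher and 6.11% lower with compound 3, and 5.62% and 4.72% with compound 6. Centring on all clusters changed the split from 936 higher and 1021 lower to 591 and 1424 with compound 3, and from 939 and 789 to 551 and 1569 with compound 6. None of the 85 loci is on these lists, and few list genes have a cluster of their own. The lists were chosen with earlier results of these data known, so their counts and adjusted p-values give no independent support for the 85 loci.

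Of 18 genes of the NADH dehydrogenase-like complex and thylakoid assembly 4 were measured, and all 4 were called higher with both compounds (median 2.05 and 2.35). NdhL (AT1G70760), a subunit of the same complex as the product of AT2G04039, stood 2.95 higher with compound 3 (adjusted p = 6.83e-06) and 2.82 higher with compound 6 (adjusted p = 1.78e-05). CaS (AT5G23060), the thylakoid calcium-sensing protein, stood 2.21 and 2.57 higher (limma, adjusted p = 5.88e-06 and 2.86e-06). NdhU (AT5G21430), another subunit of the complex, stood 1.42 and 1.54 higher (limma, adjusted p = 0.00896 and 0.00586). For AT2G04039 the differences were 2.03 and 2.31, which the rule required to be at least 1.5.

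Of 29 photosystem and electron transport genes 5 were measured, of which 4 were called higher with compound 3 and 4 with compound 6. Of 15 light-harvesting genes 3 were measured, of which 1 and 2 were called higher. These lists had smaller median differences, 0.82 and 0.89, and 0.52 and 0.82. All 3 measured Calvin cycle genes of 19 were called higher with both compounds (median 1.93 and 1.79).

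Of 20 cytokinin primary response genes the 2 measured, both type-A response regulators, were called higher with both compounds. ARR15 (AT1G74890) stood 4.96 higher with compound 3 and 3.08 higher with compound 6 (limma, adjusted p = 1.1e-07 and 7.72e-06). Its compounds stand further apart than the rule for the 85 loci allows. Of 9 genes of endoplasmic reticulum bodies 5 were measured and 1, NAI2, was called higher with both. Of 12 senescence and chlorophyll breakdown genes 2 were measured, NOL called lower with both compounds and WRKY6 with compound 6.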

How the data were processed

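RNA of 9 leaf samples, 3 in each of 3 groups, was measured on Affymetrix arrays. The authors deposited 1 log2 expression value for every array and transcript cluster. RMA, oligo and limma are named without versions in the submitters' processing notes, and no genome build is named there. The base of the logarithm was taken as 2 from the range of 0.132 to 13.9. Arrays have no read depth, and their number limits the precision.

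Clusters were paired with genes through a platform table (16722 with 1 gene, 759 with several, 20927 not named here) and named through RefSeq TAIR10.1, which held 16574 of the 16722. Loci, roles and lists were chosen with earlier results of these data known. Loci named in full follow a rule on the greatest mean difference, closeness to the thresholds and list membership; others were named for a known role after their values were seen. Sorting by annotation text, as first planned, reached 1 locus, since the table holds synonyms only, and roles were assigned by hand. Promoter motifs and protein likeness were not analysed here.

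Comparisons over all genes used limma 3.58.1 in R 4.3.3 (lmFit, eBayes, 1 model over 9 arrays, 6 residual degrees of freedom), tested on simulated data. Other values came from Python 3.11.15 with pandas 2.3.3, and figures from matplotlib 3.10.9. Scaling, thresholds, dim clusters, a replicate block and single arrays left out were tried as alternatives.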

Additional observations from a re-analysis of the deposited data

How the results depend on the processing

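The number of loci that met the rule was 85 with the values as deposited, 79 after centring over clusters paired with 1 gene, 71 after quantile normalization applied again and 83 without dim clusters, and each of these sets lay within the 85. Centring arrays on the median of all their clusters gave 54, with median differences of 1.80 and 1.85. Such centring lowers treated values relative to control values, since every treated array had a higher all-cluster median than any control array. A threshold of 1 gave 275 and one of 2 gave 27. Leaving out 1 array gave 77 to 96 loci and median differences of 1.85 to 2.01 with compound 3 and 2.06 to 2.15 with compound 6. Without the locus with a discordant second cluster, chosen after seeing the data, 84 remained. Over all genes, testing every transcript cluster gave 3360 calls with compound 3 and 3144 with compound 6 (1872 and 2019 of them higher), because more clusters were tested. Centring over all clusters gave 591 and 551 higher calls and 1569 lower calls with compound 6. Leaving out 1 array gave 603 to 929 higher calls with compound 3, the fewest without compound 3 replicate 1. Same-numbered arrays did not deviate together in every pair of groups (correlations from -0.37 to 0.26), so the numbers were not taken as pairs, and the replicate block gave 1648 calls against 1957 with compound 3 and 1453 against 1728 with compound 6.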

Other observations

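The genes next to these loci on the chromosome mostly did not share their difference. Among protein-coding genes directly beside one of the 85, 101 had a cluster of their own and were not among the 85. Their median difference from control was 0.03 with compound 3 and -0.0051 with compound 6. Both differences were at least 1 for 3 of them, against 2.05% of all clusters paired with 1 gene: AT1G21060 beside AT1G21050, AT1G18810 beside AT1G18830, and AT4G13572 beside AT4G13575. These 3 were named after their values were seen, and for them the differences ran from 1.08 to 1.40 with compound 3 and from 1.25 to 1.57 with compound 6. No pair of the 85 had at most 1 protein-coding gene between its members.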
